A study of Mus musculus with 9 samples.

Results

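Nasal mucosa of mice given papain and then exosomes was compared with nasal mucosa of untreated mice, in 6 of the 9 RNA sequencing libraries of the study. The members were the 3 control and the 3 papain+MSC-Exos libraries, chosen by the groups in their labels. All mice were labelled WT, and the treatment of the controls was given as none. The other group received 20 µg of papain, a plant cysteine protease, in 20 µl of PBS into the nose on days 0 to 2 and 7 to 11. MSC-Exos, the small vesicles released by mesenchymal stem cells, followed by the same route from days 7 to 11, and the mice were killed on day 12. The study used papain to model eosinophilic chronic rhinosinusitis and exosomes as its treatment, so the comparison asks how far the treated mucosa still differed from untreated tissue. It joins papain and exosomes against neither, and no group with exosomes alone was analysed here, so the share of each cannot be told apart. The third group, papain without exosomes (3 libraries), is quoted as values only, mostly a mean ± SD, with no test. A papain mean placed against the other groups does not place each papain library. Strain, sex, age, and the source and dose of the exosomes were not stated in the labels. Nothing there ties a library to a single mouse either, and the p-values below then describe only how far these libraries spread, in part perhaps technically.

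Papain cleaves proteins at the epithelial surface, and protease allergens of this kind start type 2 inflammation through alarmins such as interleukin 33, with goblet cell mucins, chitinase-like proteins and eosinophils as later signs. Type I and III interferons act on most mucosal cells through STAT2 and IRF9, which bind interferon-stimulated response elements and switch on a shared set of antiviral genes. Rodent nasal glands secrete very large amounts of lipocalins, major urinary proteins and BPI-fold proteins, which carry odorants and pheromones. The tissue is a mixture, with olfactory and respiratory epithelium, glands, vessels and bone. In such bulk RNA, fewer cells of a type and less RNA per cell cannot be told apart.

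Values were FPKM, a fragment count per transcript length and library total. The 15 genes of highest mean level, among them Obp1a, Obp1b, Obp2a, Mup4 and Bpifb9b, took 51.5% ± 1.55 (SD, n = 3) of length-weighted FPKM in the controls and 23.2% ± 9.72 (n = 3) with papain and exosomes. The 3 exosome libraries stood at 15.99%, 19.3% and 34.2%, so that the third lay nearest the controls (49.7% to 52.5%). Papain alone gave 41.2% ± 9.08 (n = 3). Since FPKM is relative to all fragments, a smaller share of these products by itself raises other values. How much of a general rise this accounts for was not tested. With a common sum outside these 15 genes, limma still called 4358 genes higher and 742 lower (adjusted p under 0.05). Each library was therefore also divided by the median of its gene ratios to the geometric mean of the 6 libraries, which gave factors of 0.7179, 0.7215 and 0.7212 for the controls and 1.6457, 1.5099 and 1.1089 with exosomes. Divided values are called scaled FPKM, and a deposited value is the scaled value times its library's factor. The papain libraries were divided on the same reference, by 1.0068, 0.6739 and 0.9206. Rough depth, from the step between low values, was 15.4 to 26.0 M fragments per library. Spearman correlations across genes were 0.974 to 0.982 among controls, 0.969 to 0.983 among exosome libraries and 0.929 to 0.956 between the groups.

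**Figure D1:**
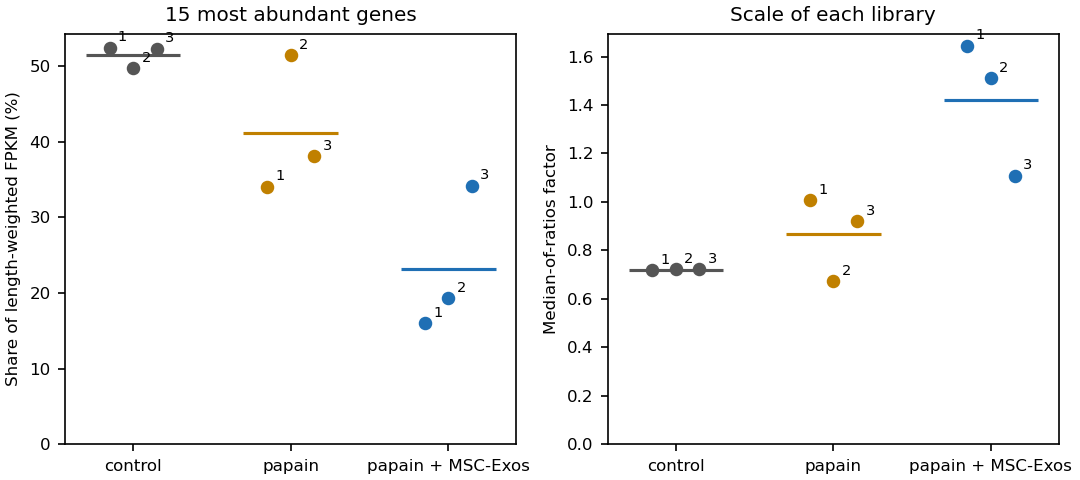
Left, share of length-weighted FPKM (%) taken by the 15 most abundant genes. Right, the median-of-ratios factor of each library. Points are libraries, numbered by replicate, and lines are group means (n = 3). Exosome libraries 1 and 2 sit at 15.99% and 19.3%, library 3 at 34.2%, and all 3 lie under the controls at 49.7% to 52.5%.

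On the deposited values, limma called 10905 of 12455 tested genes higher with papain and exosomes than in control (87.6%) and 76 lower (0.61%), and the median change of all genes was 0.77 on the log2 scale. On the scaled values the median was 0.0068, and 1584 of 12363 genes were higher (12.8%) and 1959 lower (15.8%). All the log2 changes below are of log2(FPKM + 1), scaled unless stated, which understates low genes, with the SE and the Benjamini-Hochberg adjusted p from limma (n = 3 per group). A call needs an adjusted p under 0.05. Of 12257 genes tested on both scales, 1584 were higher on both (12.9%) and 71 were lower on both (0.579%). Another 894 (7.29%) were called higher as deposited and lower after scaling, so that for these the direction belongs to the scale. All 1584 genes called higher after scaling were also called higher as deposited, where 87.6% of genes were. For a rise, the deposited call therefore adds little to the scaled one. Libraries of the groups did not overlap, in scaled FPKM, for 2831 genes on the higher side (22.9%) and 2966 on the lower side (24%), and in deposited FPKM for 88.2% and 0.594% of genes. The scaled count of higher genes was 477 without exosome library 1, 661 without control library 3, 845 without control library 1, 856 without exosome library 2, 1157 without control library 2 and 1844 without exosome library 3. Calls of a log2 change of at least 1 on both scales numbered 87 higher and 23 lower.

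**Figure D2:**
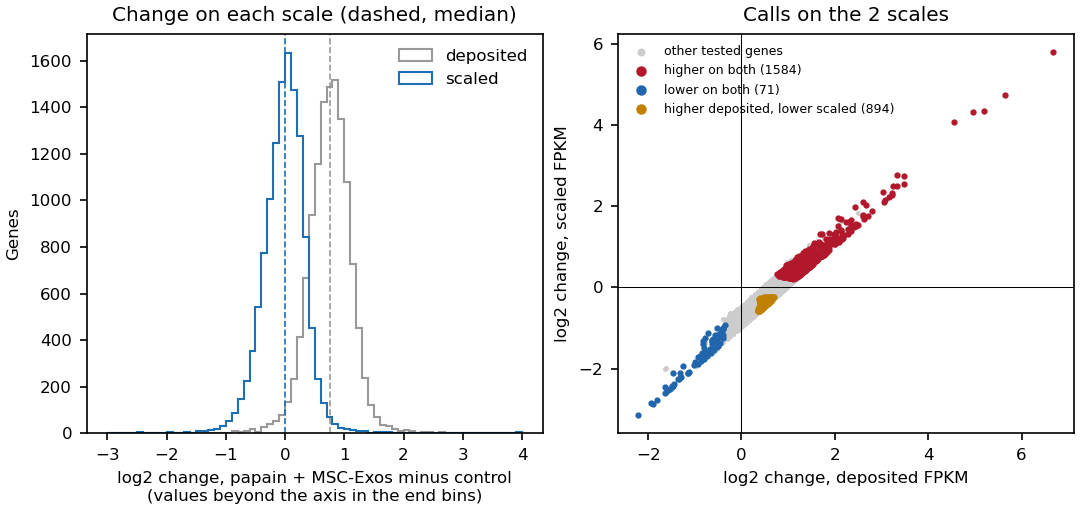
Left, number of genes by log2 change (papain + MSC-Exos minus control) on the deposited and the scaled FPKM, with dashed lines at the medians of 0.77 and 0.0068. Right, the 2 changes of each gene plotted against each other, with 1584 genes called higher on both scales, 71 lower on both, and 894 higher as deposited but lower when scaled.

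Single genes with some of the largest rises on both scales were Chil4, Lcn2, Cd177, Saa3 and Msln. Chil4 (ENSMUSG00000063779, chr3:106201490-106219507), a chitinase-like protein of allergic airway epithelium, had scaled FPKM of 10.1, 2.37 and 15.1 in the controls and 364, 425 and 662 with papain and exosomes. Its mean was 52.6-fold higher, a log2 change of 5.80 ± 0.52 (adjusted p = 0.00126), while papain alone stood at 8177 ± 170.0 (SD, n = 3, as for all papain values with ± below). All 3 exosome libraries were over every control and under the papain mean. Lcn2 (ENSMUSG00000026822, chr2:32384633-32388252), a lipocalin that withholds bacterial iron, was at 16.3, 15.4 and 14.4 in the controls and 549.8, 424 and 349.6 with exosomes, 28.7-fold higher (log2 change 4.73 ± 0.16, adjusted p = 1.03e-05). Papain alone gave 211 ± 85.9 for Lcn2. Saa3 (ENSMUSG00000040026, chr7:46711998-46715700), a serum amyloid A made by inflamed epithelium and macrophages, was listed at 0 in 2 controls and at 0.0957 in the other, against 15.8, 18.7 and 14.6 with exosomes and 5.13 ± 4.60 with papain (log2 change 4.07 ± 0.11, adjusted p = 2.67e-06). Neither gene had any overlap between the groups. Cd177 (ENSMUSG00000052212, chr7:24743983-24760311), a surface glycoprotein best known from neutrophils, went from 7.98, 1.87 and 6.57 to 148, 91.9 and 118 (4.35 ± 0.39, adjusted p = 0.00126), with papain at 52.2 ± 20.9. Msln, the cell-surface glycoprotein mesothelin, went from 20.2, 19.9 and 15.6 to 118, 122 and 101 (2.55 ± 0.12, adjusted p = 8.66e-05). For Lcn2, Saa3, Cd177 and Msln each exosome library lay over the papain mean, and for Chil4 each lay under it. The call of each of these 5 genes held with any single library left out.

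**Figure D3:**
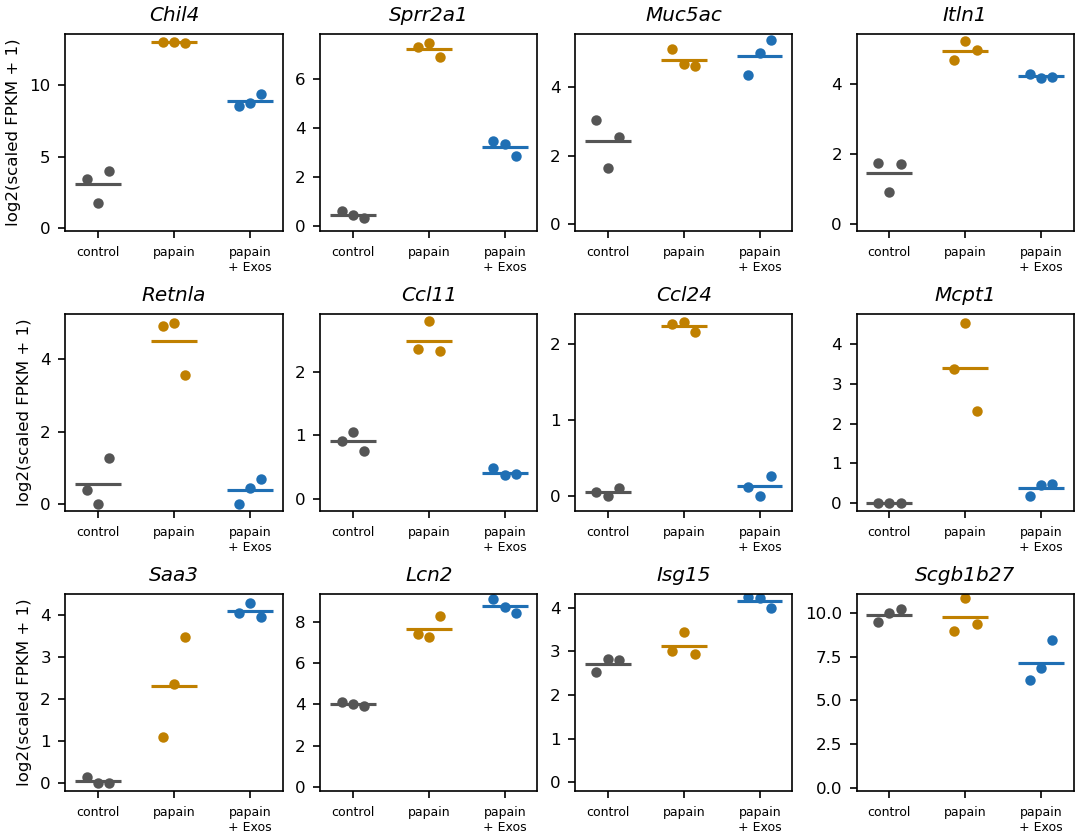
Level of 12 genes, as log2(scaled FPKM + 1), in the 3 libraries of each group, with a line at the group mean of the plotted values. Retnla, Ccl11, Ccl24 and Mcpt1 are highest with papain, while Saa3, Lcn2 and Isg15 are highest with papain and exosomes, and Scgb1b27 is lowest there.

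Nearly all measured interferon-stimulated genes rose. Of 30 listed genes, 28 were in the table and 27 were tested, and 26 were called higher on both scales, where 12.9% of all genes were. Their median scaled change was 0.91 against 0.0068 over all genes. In scaled FPKM every exosome library lay over every control for 26 of the 27, against 22.9% of all genes. With 1 library left out, 19 (without exosome library 1) to 26 were called. The remaining member, Ifit2, had a scaled change of -0.14 (adjusted p = 0.679), and Cxcl10 was below the filter.

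The promoters are shown because these genes moved together and because interferon regulatory factors bind paired GAAA repeats. RefSeq promoters (GRCm38.p6, 250 bases before to 50 after each start) were found for 20 of the listed genes. The motif searched, GAAA, any pair of bases and GAAA again, read on both strands with overlapping matches counted, was present in a promoter of 13 of the 20 (65%) and of 1079 of 27025 genes in the whole table (3.99%). A match is a description of these letters, not a site of binding. The list was made of genes already known to answer interferon, so this share is not a result of the comparison. The 13 include Cxcl10, which was not tested. The 4 tested genes of smallest p with a match follow, 5′ to 3′ on the strand of the gene, with capitals marking the motif or its reverse complement.
Isg15, chr4:156200769-156201068, minus strand: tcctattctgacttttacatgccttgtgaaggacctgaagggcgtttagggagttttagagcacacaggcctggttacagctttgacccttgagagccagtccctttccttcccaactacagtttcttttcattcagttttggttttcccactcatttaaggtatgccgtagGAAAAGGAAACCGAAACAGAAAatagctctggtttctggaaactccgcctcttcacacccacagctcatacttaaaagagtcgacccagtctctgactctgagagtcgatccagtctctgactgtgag
Oas1a, chr5:120907476-120907775, minus strand: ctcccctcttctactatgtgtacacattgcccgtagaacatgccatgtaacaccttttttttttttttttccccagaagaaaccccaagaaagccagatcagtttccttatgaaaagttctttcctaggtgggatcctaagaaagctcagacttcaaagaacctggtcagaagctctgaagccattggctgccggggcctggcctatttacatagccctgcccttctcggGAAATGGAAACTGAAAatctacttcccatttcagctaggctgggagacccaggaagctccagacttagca
Ifit3, chr19:34583279-34583578, plus strand: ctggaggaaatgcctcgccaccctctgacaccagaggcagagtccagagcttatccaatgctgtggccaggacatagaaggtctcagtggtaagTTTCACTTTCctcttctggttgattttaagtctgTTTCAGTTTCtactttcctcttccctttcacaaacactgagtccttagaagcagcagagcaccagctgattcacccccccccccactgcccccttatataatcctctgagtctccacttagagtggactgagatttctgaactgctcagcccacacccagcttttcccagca
Ifit1, chr19:34640639-34640938, plus strand: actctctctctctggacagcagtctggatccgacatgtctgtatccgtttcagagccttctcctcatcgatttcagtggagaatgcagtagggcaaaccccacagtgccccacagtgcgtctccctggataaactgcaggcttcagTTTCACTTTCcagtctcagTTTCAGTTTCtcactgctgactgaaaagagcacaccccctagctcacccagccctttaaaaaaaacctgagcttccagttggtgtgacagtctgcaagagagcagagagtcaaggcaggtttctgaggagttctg
Matches numbered 3 in the Isg15 promoter, where they overlap in a single run, and 2 in each of the other 3.

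Isg15 (ENSMUSG00000035692, chr4:156199424-156200818), a ubiquitin-like protein that is attached to other proteins after interferon, had scaled FPKM of 4.80, 6.15 and 5.94 in the controls and 17.8, 17.6 and 14.9 with exosomes, a log2 change of 1.43 ± 0.11 (adjusted p = 0.000714). Every exosome library exceeded every control, and papain alone stood at 7.87 ± 1.78. Oasl2, a ubiquitin-like relative of the oligoadenylate synthetases, went from 5.71, 5.73 and 5.01 to 21.7, 22.3 and 18.6 (1.75 ± 0.09, adjusted p = 0.000148). Usp18, the protease that removes ISG15 from proteins, went from 7.32, 6.32 and 6.66 to 17.4, 16.3 and 16.7 (1.20 ± 0.08, adjusted p = 0.000313). Papain means of these 2 were 9.54 and 10.5, between the controls and the exosome libraries. Oas1a, a sensor that makes oligoadenylates on double-stranded RNA, went from 2.81, 2.83 and 2.01 to 8.55, 8.09 and 5.97 (1.26 ± 0.15). Ifit3 and Ifit1, which bind foreign RNA ends or each other, rose less, from 8.92, 7.24 and 6.46 to 17.6, 17.2 and 13.4 (0.9999 ± 0.14) and from 10.5, 8.79 and 8.57 to 15.04, 17.8 and 13.6 (0.67 ± 0.12). Papain means of Ifit3 (7.63) and Ifit1 (8.75) lay within the control range for both genes.

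The list includes genes of signalling proteins that act upstream of the others. Stat2 was at 6.80, 6.09 and 5.44 in the controls and 8.83, 8.73 and 8.93 with exosomes (0.47 ± 0.09, adjusted p = 0.00986). Irf9, which binds DNA in its complex, went from 8.86, 7.52 and 5.96 to 15.6, 16.8 and 14.4 (0.99 ± 0.13). Irf7, the factor that amplifies interferon production, had the largest change of the list, from 4.72, 4.06 and 4.46 to 17.8, 23.6 and 12.7 (1.77 ± 0.19, adjusted p = 0.00217). Exosome library 3 was the lowest of its group for Isg15, Irf7 and Oas1a and the highest for Stat2. The smallest called change was that of Ddx58, the RNA sensor RIG-I (0.35 ± 0.11, adjusted p = 0.0446), whose call was lost without control library 1 or 3, or exosome library 1 or 2 (adjusted p from 0.107 to 0.143).

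**Figure D4:**
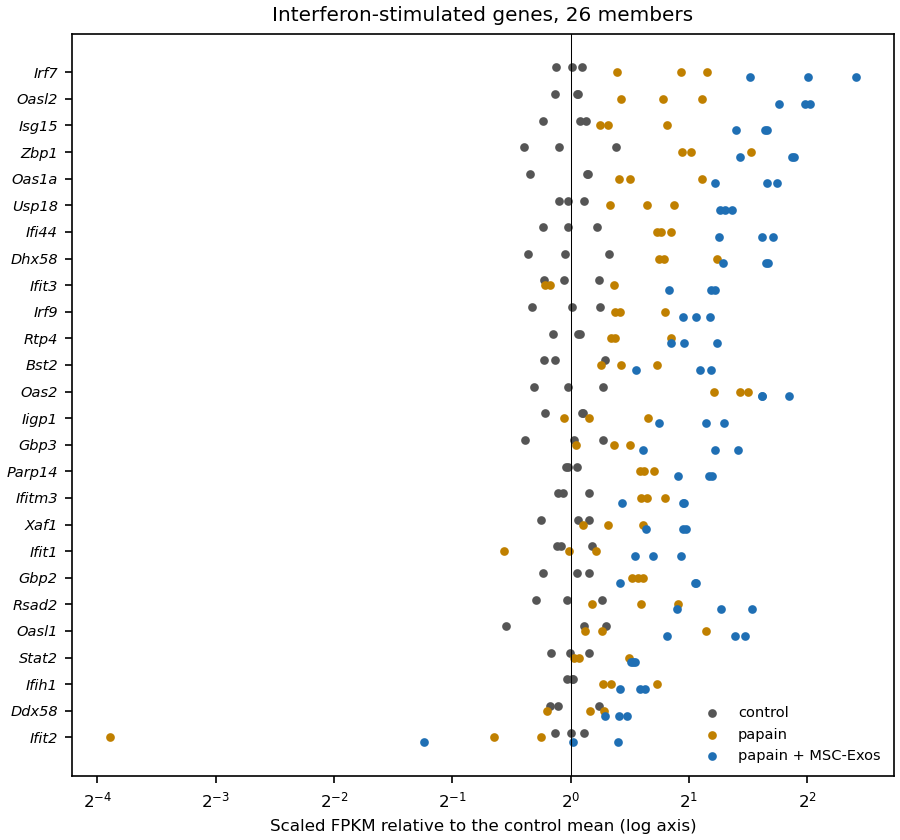
Scaled FPKM of 26 of the tested interferon-stimulated genes in each of the 9 libraries, divided by the control mean of the gene (log axis), ordered by the change in log2(scaled FPKM + 1). For 25 of these genes all 3 exosome libraries lie to the right of every control, against 22.9% of all tested genes, and Ifit2 is the exception.

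Antigen presentation genes moved the same way. For MHC class I and the immunoproteasome, 11 of the 14 tested were called higher (12.8% of all genes) and 0 lower (also at an unadjusted p under 0.05), where 15.8% of all genes were, with a median of 0.66. The count was 7 without control library 3 or exosome library 1. H2-T23, a non-classical class I chain recognised by natural killer cells, went from 18.3, 17.3 and 15.7 to 38.4, 41.1 and 32.5 (1.08 ± 0.11, adjusted p = 0.0017), and Tapbp, which helps load peptides, from 8.86, 9.79 and 8.33 to 15.3, 15.9 and 13.0 (0.65 ± 0.10, adjusted p = 0.00564). The light chain B2m (0.33, adjusted p = 0.144) and the proteasome activators Psme1 (0.195) and Psme2 (0.27) were not called. Reads shared among the near-identical H2 genes could be split differently by the authors' counting, so single H2 values are uncertain. Of the class II and dendritic cell list, 4 of the 7 tested were higher and 0 lower (also at an unadjusted p under 0.05). Cd74, the invariant chain that guides class II, was at 36.8, 53.5 and 47.7 in the controls and 175, 128 and 108 with exosomes (1.54 ± 0.20, adjusted p = 0.00351), and H2-Ab1 at 7.82, 8.72 and 9.65 and 32.3, 32.3 and 20.0 (1.56 ± 0.18, adjusted p = 0.00265). H2-Aa, the partner chain of H2-Ab1, was at 30.1, 34.7 and 46.9 and 41.7, 34.1 and 33.8, overlapping, with a change of -0.01 (adjusted p = 0.974). Papain means were 89.1 for Cd74 and 19.0 for H2-Ab1. The dendritic cell genes Flt3, Ccr7 and Xcr1 were under 1 FPKM, after scaling, in all 6 libraries.

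Among monocyte and macrophage markers 10 of the 12 tested were called higher (12.8% of all genes) and 0 lower (also at an unadjusted p under 0.05), where 15.8% of all genes were, with a median of 0.43. This count was 6 without control library 3 and 5 without exosome library 1 or 2. C1qa, a subunit of the complement recognition protein C1q made by tissue macrophages, was at 13.4, 14.1 and 14.03 in the controls and 26.2, 26.5 and 24.8 with exosomes (0.86 ± 0.07, adjusted p = 0.00112), and papain gave 25.5 ± 2.75. Ly6c2, a surface protein of inflammatory monocytes, went from 1.80, 1.02 and 2.31 to 7.04, 6.26 and 5.12 (1.42 ± 0.18, adjusted p = 0.00372). The summed level of the whole list was 277 to 362 scaled FPKM in the controls, 364 to 568 with papain and 482 to 584 with exosomes, most of it Lyz2. The library ranges of that sum did not overlap between controls and exosomes. Of neutrophil markers 3 of the 9 tested were higher and 0 lower (also at an unadjusted p under 0.05), against 12.8% and 15.8% of all genes. Their higher count was 1 without control library 1, and the calls were Csf3r, S100a8 and Il1r2. Csf3r, the receptor of granulocyte colony-stimulating factor, went from 0.679, 0.918 and 0.646 to 3.06, 2.95 and 2.29 (1.10 ± 0.12, adjusted p = 0.00217), and S100a8, a subunit of calprotectin, from 11.4, 14.6 and 10.2 to 17.0, 22.3 and 31.2 (0.88 ± 0.21, adjusted p = 0.0202). The call of S100a8 was lost without control library 1 or 3 (adjusted p from 0.0652 to 0.0737) and that of Il1r2 without control library 1 or 2, or exosome library 1 or 2 (adjusted p from 0.0694 to 0.129). The neutrophil granule genes Mpo and Elane and the surface gene Ly6g were all under 1 scaled FPKM, and the list's sum was 41.9 to 63.8 in the controls and 66.4 to 102 with exosomes. The part of neutrophils in the rise of Cd177 and Lcn2 was not tested.

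Most acute-phase and antimicrobial genes rose. Of 11 tested members, 8 were higher and 1 lower, against 12.8% and 15.8% of all genes, with a median of 1.13. Besides Lcn2 and Saa3, the higher members were Pigr (2.29), the receptor that carries IgA across epithelium, Slpi (1.39), an antiprotease, Reg3g (1.31), a lectin active against Gram-positive bacteria, Ltf (1.13), the iron binder lactoferrin, Cp (1.13), ceruloplasmin, and Lbp (0.86), the lipopolysaccharide-binding protein. Each of these 6 had an adjusted p of at most 0.0103, and all 8 calls held with any library left out. Reg3g was the most abundant of them, at 1964, 1123 and 1465 scaled FPKM in the controls and 3686, 3315 and 4067 with exosomes. Defb1, a constitutive beta-defensin, went the other way, at 6.08, 4.40 and 10.1 and 1.59, 3.29 and 3.58 (-1.02 ± 0.29, adjusted p = 0.0345), but its deposited change of -0.26 was not called, and the scaled call was lost without control library 1 or 3, or exosome library 1 or 2 (adjusted p from 0.0558 to 0.106). The other serum amyloid A genes, Saa1 and Saa2, were at most 0.0386 in all 6 libraries. In the complement list 2 genes rose, C3, the central component, from 2.50, 1.38 and 1.91 to 18.7, 14.9 and 13.1 (2.50 ± 0.17, adjusted p = 0.000313), and Cfb, the protease of the alternative pathway, from 2.19, 1.97 and 2.34 to 7.71, 6.04 and 6.12 (1.26 ± 0.11, adjusted p = 0.00103). Complement counts were 2 higher and 2 lower of 8 tested, against 12.8% and 15.8% of all genes, and both lower calls were higher on the deposited scale. One of them, C1s1, the protease subunit C1s, had a scaled change of -0.33 ± 0.08 and a deposited change of 0.55. C1s1 lost its scaled call without control library 1 or 3, or exosome library 1 or 2 (adjusted p from 0.0578 to 0.0746). The papain mean of C3 was 13.5 ± 1.003 and that of Cfb 4.09 ± 1.66.

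Chitinase-like and goblet cell genes rose in most of their tested members, and a part of interleukin 13 in this was not tested. All 5 tested chitinase genes had every exosome library over every control in scaled FPKM, against 22.9% of all genes. Of the 5, 4 were called higher (12.8% of all genes), with a median of 1.60, and Chia1 missed the call (0.35, adjusted p = 0.0612). Chil1, made by macrophages and epithelium, went from 40.1, 20.9 and 29.3 to 151, 143 and 126 (2.22 ± 0.21, adjusted p = 0.00141), with papain at 111 ± 28.5. Chil3, the macrophage protein Ym1, went from 1.61, 1.22 and 0.657 to 4.07, 5.36 and 7.27 (1.60 ± 0.21, adjusted p = 0.00381), with papain at 40.4 ± 14.1. Chil3 and Chil4 are near-identical copies, and the sources used here do not give how the authors' counting split their reads. Of goblet cell and interleukin 13 response genes 6 of the 9 tested were higher and 0 lower (also at an unadjusted p under 0.05), and 6 were higher in each of the 6 fits with a library left out. Muc5ac, the inducible airway mucin, was at 7.28, 2.14 and 4.81 in the controls and 19.5, 30.6 and 40.2 with exosomes (2.49 ± 0.36, adjusted p = 0.00504), and papain gave 27.1 ± 5.58. The papain mean lay inside the exosome range. Itln1, a lectin of goblet cells, went from 2.36, 0.896 and 2.31 to 18.4, 16.8 and 17.5 (2.75 ± 0.20, adjusted p = 0.000606), and Fcgbp, a mucus protein, from 1.71, 1.39 and 1.36 to 5.46, 6.52 and 7.99 (1.61 ± 0.13, adjusted p = 0.000833). Neither gene had a control library within the exosome range. Alox15, a lipoxygenase induced by interleukin 13, went from 4.38, 6.63 and 5.85 to 10.3, 10.7 and 9.55 (0.77 ± 0.13, adjusted p = 0.00732, papain 17.7 ± 2.09). Muc5b (1.502) and Tff2 (1.48) were the other members called. Clca1, a goblet cell protease, was listed at 0 in 2 controls and stood at 1.18, 0.992 and 1.14 with exosomes and 6.22 ± 2.62 with papain, and was tested only as deposited (1.34, adjusted p = 6.53e-08). The goblet cell factors Spdef (0.03) and Agr2 (-0.16) were not called on the scaled values.

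Small proline-rich genes, which build the cornified envelope of stressed epithelium, split. Sprr2a2 was at 0.553, 1.41 and 0.273 in the controls and 39.4, 37.2 and 24.0 with exosomes (4.33 ± 0.26, adjusted p = 0.000198), and Sprr2a1 at 0.535, 0.377 and 0.261 and 10.2, 9.43 and 6.26 (2.77 ± 0.17, adjusted p = 0.000198). Papain alone gave 184 ± 31.3 and 154 ± 30.8, so both genes lay between the controls and papain. These copies and Sprr2a3 (1.98 ± 0.22) are nearly identical, so the split of reads among them is uncertain. The 3 were the called rises among 9 tested members, against 12.8% of all genes, and with shared reads they need not be separate. Sprr3 was the called fall, where 15.8% of all genes were lower, and on the scaled values only (-0.91, deposited -0.09). Its call was lost without control library 1 or 3, or exosome library 1 or 2 (adjusted p from 0.0849 to 0.12). Sprr1a (-0.08), Cnfn (-0.13) and Krt6a (-0.51) were not called.

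The type 2 cytokines Il5 and Il13 were under 1 FPKM in both groups. Il5 stood at 0.113, 0.161 and 0.0159 scaled FPKM in the controls and 0.0972, 0 and 0.137 with exosomes, and Il13 at 0, 0 and 0.0381 and 0.0834, 0.0530 and 0. Papain means were 0.847 ± 0.369 and 0.693 ± 0.108. Tslp, an epithelial alarmin, was at 0.298, 0.557 and 0.167 and 0.0956, 0.0953 and 0.370. These 3 genes, like Ccl11, Ccl24, Retnla and Mcpt1, failed the filter of 1 FPKM in 3 libraries and were not tested, so their values are given without a fold or a call. Il33, the alarmin stored in epithelial nuclei, was at 40.3, 37.4 and 41.0 in the controls and 23.2, 22.5 and 26.3 with exosomes. Its change was -0.70 ± 0.09 on the scaled values (adjusted p = 0.00351) and 0.23 on the deposited ones (adjusted p = 0.202), so its sign turned with the scale. Papain alone gave 24.5 ± 0.181. Il4ra, a receptor chain shared by interleukin 4 and interleukin 13, was higher (0.50 ± 0.14, adjusted p = 0.0306), though not without control library 1 or 3, or exosome library 1 or 2 (adjusted p from 0.0704 to 0.109).

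Ccl11, a chemokine that attracts eosinophils, was at 0.874, 1.07 and 0.691 in the controls, 0.391, 0.293 and 0.307 with exosomes and 4.72 ± 1.09 with papain. Ccl24, which uses the same receptor, was at 0.0364, 0 and 0.0784 in the controls, 0.0877, 0 and 0.2001 with exosomes and 3.69 ± 0.222 with papain. All 3 exosome libraries had less scaled Ccl11 than any control, while the groups overlapped in deposited FPKM. Ccl8, which attracts monocytes and Th2 cells, was the called member of that list. It went from 5.06, 1.75 and 2.99 to 9.85, 8.36 and 7.49 (1.23 ± 0.25, adjusted p = 0.0129, 0.0542 without exosome library 1), with papain at 28.4 ± 6.19. Retnla, a secreted protein of alternatively activated macrophages, was at 0.318, 0 and 1.40 in the controls, 0, 0.365 and 0.612 with exosomes and 23.7 ± 11.2 with papain. Arg1, the arginase of such macrophages, was at 0.790, 0.709 and 1.21 and 0.794, 1.07 and 1.12, a change of 0.07 ± 0.13 (adjusted p = 0.703), against 4.54 ± 0.196 with papain. On the deposited values Arg1 was called higher (0.54, adjusted p = 0.00302), and the groups did not overlap. For Retnla and Arg1 the exosome libraries overlapped the controls in scaled FPKM and lay under the papain mean. Mrc1, the mannose receptor, was lower on the scaled values (-0.43 ± 0.13, adjusted p = 0.0382, deposited 0.18), and the call was lost without control library 1, 2 or 3, or exosome library 1 or 2 (adjusted p from 0.0651 to 0.13). None of 9 eosinophil markers passed the filter. Their summed level was 0.933 to 1.63 in the controls, 5.40 to 14.2 with papain and 1.54 to 2.09 with exosomes, and Epx, the eosinophil peroxidase, was at most 0.0201. Mcpt1, a mucosal mast cell protease, was listed at 0 in the controls and stood at 0.141, 0.364 and 0.397 with exosomes and 11.8 ± 9.31 with papain. Of the tested mast cell markers Kit, Hdc and Gata2, the counts were 0 called either way by limma, also at an unadjusted p under 0.05, of 3 tested. Of all genes, 12.8% were called higher and 15.8% lower.

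Epithelial junction genes counted 6 higher and 3 lower of 16 tested, against 12.8% and 15.8% of all genes, and 1 was lower on both scales. Tjp3, a tight junction scaffold, went from 9.41, 8.48 and 7.67 to 20.0, 15.6 and 17.0 (0.96 ± 0.11, adjusted p = 0.00284), and Cdh1, E-cadherin, was also higher (0.60 ± 0.09, adjusted p = 0.00611). Cldn10, a claudin of secretory epithelium that forms ion channels, went from 37.6, 35.6 and 37.9 to 10.9, 11.6 and 16.9 (-1.45 ± 0.15, adjusted p = 0.00206) and was called lower as deposited too (-0.54). These 3 calls held with any library left out. Tuft cell genes, which mark chemosensory cells, counted 4 higher and 0 lower (also at an unadjusted p under 0.05) of 6 tested, and 2 without control library 3 or exosome library 1. Gnat3, the taste G protein gustducin, went from 0.800, 0.478 and 0.252 to 1.38, 2.04 and 2.00 (0.90 ± 0.16, adjusted p = 0.00834), and Avil from 0.609, 0.683 and 0.508 to 1.495, 1.15 and 1.44 (0.56 ± 0.10, adjusted p = 0.00979). Papain means of these 2 were 2.59 and 1.62. The eicosanoid list counted 4 higher and 1 lower of 11 tested, against 12.8% and 15.8% of all genes. Its higher count was 2 without control library 3 or exosome library 1. Alox12e, an epidermal lipoxygenase, rose from 1.65, 0.984 and 1.24 to 6.12, 7.99 and 4.82 (1.66 ± 0.17, adjusted p = 0.00206), with papain at 34.5 ± 9.03. Alox5ap, which presents arachidonic acid to 5-lipoxygenase, rose by 0.54 ± 0.12 (adjusted p = 0.0148), a call lost without control library 1 (adjusted p = 0.0504). Socs3, the feedback inhibitor of STAT3, was the called member of 10 tested cytokine signalling genes, at 2.71, 2.48 and 2.22 and 4.58, 3.77 and 3.71 (0.53 ± 0.10, adjusted p = 0.0102), against 9.81 ± 3.53 with papain. Of proinflammatory genes, Cxcl5 (0.77 ± 0.19) and Cxcl16 (0.35 ± 0.09) were called, the first lost without control library 1 or 3, or exosome library 1 or 2 (adjusted p from 0.0627 to 0.0813) and the second without control library 1, 2 or 3, or exosome library 1 or 2 (adjusted p from 0.0579 to 0.103). Il1b was not called (0.85 ± 0.28, adjusted p = 0.0568).

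The largest falls were in secreted products of nasal glands. Obp2b (ENSMUSG00000079539, chr2:25737009-25740097), an odorant-binding lipocalin, was at 15266, 20125 and 17154 scaled FPKM in the controls and 1619, 2006 and 4202 with exosomes, 6.71-fold lower (log2 change -2.86 ± 0.39, adjusted p = 0.00429). Papain alone gave 7157 ± 3513. Obp2a went from 31001, 39594 and 40115 to 4906, 6183 and 9929 (-2.45 ± 0.41, adjusted p = 0.00715), with papain at 12168 ± 5319.9. Both calls held with any library left out. Lcn11, another lipocalin, went from 29038, 20952 and 28388 to 2594, 3314 and 9999.8 (-2.55 ± 0.53, adjusted p = 0.0131), and Mup4, a major urinary protein of nasal glands, from 41086, 32696 and 44774 to 3924, 5691 and 15067 (-2.49 ± 0.54, adjusted p = 0.0152). On leaving out a library, Lcn11 lost its call without control library 3, or exosome library 1 or 2 (adjusted p from 0.0509 to 0.0536) and Mup4 without control library 1 or 3, or exosome library 1 or 2 (adjusted p from 0.0539 to 0.0616). Obp1a, among the most abundant transcripts of the tissue, was at 121249, 97929 and 126447 and 17585, 24718 and 60735, a scaled change of -1.94 ± 0.67 (adjusted p = 0.0612) and a deposited change of -0.98 (adjusted p = 0.0029). In each of these 5 genes exosome library 3 was the highest of its group, the library with the 34.2% share of abundant genes, and no exosome library reached the lowest control.

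Over the whole list of gland lipocalins, major urinary proteins and Bpif products, 8 of 19 tested members were lower and 2 higher after scaling. Of all genes, 15.8% were lower and 12.8% higher. The list's median was -1.21 scaled and -0.25 deposited, and 7 members were lower on both scales (0.579% of all genes). The higher count was 1 without control library 1 or 3 or exosome library 1 or 2. The count of lower members was 3 without control library 1, 5 without control library 2 and 2 without control library 3 or exosome library 1 or 2. It was 2 under quantile normalization, which gives every library the same set of values and so fixes the levels of the most abundant genes. Bpifb1, a BPI-fold protein of goblet cells, rose, from 7.90, 6.61 and 6.11 to 53.3, 32.8 and 32.7 (2.33 ± 0.19, adjusted p = 0.000851), against 29.1 ± 3.78 with papain. Of 4 tested secretoglobins, small secreted proteins of airway and gland epithelium, 3 were lower and 1 higher, against 15.8% and 12.8% of all genes. Scgb1b27 (ENSMUSG00000066583, chr7:34021483-34022881) went from 718, 1044 and 1195 to 70.6, 114 and 344 (-2.77 ± 0.51, adjusted p = 0.00955), while papain stood at 1013 ± 744. Scgb2b27, its usual partner, had a change of -2.09 ± 0.42 (adjusted p = 0.0121). Scgb1c1 went from 2284, 2518 and 2404 to 1164, 1014 and 1348 (-1.04 ± 0.18, adjusted p = 0.00821), but its deposited change was -0.08 and became positive under TPM. Scgb3a1, a secretoglobin of airway secretory cells, rose from 2.39, 4.82 and 4.26 to 16.7, 11.7 and 10.3 (1.54 ± 0.23, adjusted p = 0.00521), with papain at 24.6 ± 11.5. These 4 calls held with any library left out. Many of these genes have close copies, and the sources used here do not give how reads were shared between them.

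Other secreted proteins fell on both scales. Esp8, an exocrine gland-secreted peptide, was at 21.4, 19.4 and 23.5 in the controls and 1.53, 2.60 and 6.56 with exosomes (-2.45 ± 0.34, adjusted p = 0.0044). Dnase1, the secreted nuclease, went from 197, 209.8 and 341 to 28.9, 43.9 and 73.1 (-2.39 ± 0.33, adjusted p = 0.00433), and Pnliprp1, a secreted lipase-related protein, from 55.0, 64.4 and 61.0 to 6.80, 10.8 and 21.8 (-2.25 ± 0.33, adjusted p = 0.00509). All 3 were lower in each exosome library than in any control. G0s2, an inhibitor of fat breakdown inside cells, was at 49.1, 46.1 and 37.9 and 6.21, 6.28 and 15.3 (-2.25 ± 0.29, adjusted p = 0.00381). Papain means, given without their spread, were 10.1, 97.7, 27.4 and 33.0, each between the 2 groups, though single papain libraries may not be. Wfdc12, an antiprotease-like protein, fell from 104, 62.3 and 69.5 to 5.55, 3.93 and 38.6 (-2.84 ± 0.69, adjusted p = 0.0211), and lost the call without control library 1 or 3, or exosome library 1 or 2 (adjusted p from 0.0533 to 0.079). Exosome library 3 was again the nearest to the controls for all 5 genes.

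Mature olfactory neuron genes had few calls (1 higher and 2 lower of 20 tested, median 0.05), though 7 were higher without exosome library 3. Omp, the marker of mature olfactory sensory neurons, was at 297, 356 and 245 in the controls, 364, 489 and 272 with exosomes and 164 ± 54.0 with papain, and its change of 0.30 ± 0.23 was not called (adjusted p = 0.341). Gfy, a Golgi protein of these neurons, was the higher member, from 76.3, 96.4 and 77.9 to 155, 187 and 113 (0.83 ± 0.19, adjusted p = 0.0169), but not without control library 1 or 3, or exosome library 1 (adjusted p from 0.0616 to 0.0634). S100a5, an activity-dependent calcium-binding protein, was a lower member, from 578, 569.8 and 537 to 415, 402 and 341 (-0.54 ± 0.13, adjusted p = 0.0203, deposited 0.42), and lost the call without control library 1, 2 or 3, or exosome library 2 (adjusted p from 0.0536 to 0.0714). The list's sum was 1428 to 1660.4 in the controls, 531 to 1014 with papain and 1165 to 1824 with exosomes. Odorant receptor genes counted 1 higher and 64 lower of 163 tested on the scaled values and 57 higher and 6 lower of 144 as deposited, against 15.8% of all genes lower after scaling and 87.6% higher and 0.61% lower as deposited. The scaled count of lower receptors was 34 without control library 1 or 3 and 23 without exosome library 1. All others of the 1091 receptor genes in the table were below the filter. The 2 called receptors of smallest p were Olfr727 (-1.51 ± 0.16, deposited -0.67) and Olfr1226 (-0.74 ± 0.08, deposited -0.04). Immature neuron genes counted 2 higher, near the 12.8% of all genes, and 0 lower (1 at an unadjusted p under 0.05) of 13 tested. The 2 were Tubb3, a neuronal tubulin (0.61 ± 0.15, lost without control library 1 or 3, or exosome library 1 or 2, adjusted p from 0.0621 to 0.0811), and Gng8, a G protein subunit (0.46 ± 0.14, lost without control library 1, 2 or 3, or exosome library 1 or 3, adjusted p from 0.0524 to 0.11). Ciliated cell genes counted 2 higher, near the 12.8% of all genes, and 0 lower (also at an unadjusted p under 0.05) of 19 tested. These were Foxj1, the factor that drives motile cilia (0.52 ± 0.16, lost without control library 1, 2 or 3, or exosome library 1 or 3, adjusted p from 0.0736 to 0.124), and Dnah11, a dynein of cilia (0.30 ± 0.08, lost without control library 1 or 3, or exosome library 1 or 2, adjusted p from 0.0662 to 0.0775). Sustentacular and odorant metabolism genes counted 2 higher and 3 lower of 15 tested, near the 12.8% and 15.8% of all genes, with 1 without control library 1 or 3 or exosome library 1 on the lower side. Muc2, a mucin on that list, rose from 9.49, 12.8 and 12.1 to 25.6, 25.0 and 19.2 (0.96 ± 0.14, adjusted p = 0.00521), while Gpx6, a glutathione peroxidase of the olfactory mucosa, went from 810.3, 917 and 987 to 383, 447 and 589 (-0.95 ± 0.19, adjusted p = 0.0113, deposited 0.01).

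Matrix and remodelling genes counted 0 higher (2 at an unadjusted p under 0.05) and 5 lower of 21 tested after scaling, against 12.8% and 15.8% of all genes. The lower count was 2 without control library 3 or exosome library 2, and the higher count 2 without exosome library 3. As deposited, 16 of 21 were higher and 0 lower, against 87.6% and 0.61% of all genes. Col1a1, the main fibrillar collagen chain, was at 88.3, 243 and 198 in the controls and 154, 127 and 55.2 with exosomes, a change of -0.65 ± 0.45 (adjusted p = 0.299), and its groups overlapped. Postn, periostin, was at 42.7, 40.0 and 50.8 and 35.6, 29.9 and 24.0 (-0.57 ± 0.15, adjusted p = 0.0278, deposited 0.37), and lost its call without control library 1 or 3, or exosome library 2 (adjusted p from 0.0647 to 0.0941). Tgfb1 (0.31 ± 0.12, adjusted p = 0.0749) and Timp1 (0.42 ± 0.16, adjusted p = 0.0782) were not called after scaling. Their papain means were 3.78 ± 0.425 and 19.4 ± 5.04. The lower calls of smallest p were Timp3, an inhibitor of matrix proteases, from 23.5, 25.2 and 24.6 to 15.6, 15.5 and 15.2 (-0.63 ± 0.07, adjusted p = 0.00247, deposited 0.28), and Lox, which cross-links collagen, from 6.90, 11.6 and 11.0 to 4.63, 4.13 and 4.21 (-0.998 ± 0.17, adjusted p = 0.00751, deposited -0.17). None of the 5 was called lower as deposited. Endothelial markers counted 0 higher (also at an unadjusted p under 0.05) and 3 lower of 7 tested after scaling, against 15.8% of all genes lower. The lower count was 1 without control library 1 or exosome library 1, 2 or 3. As deposited, 5 of 9 tested were higher and 0 lower, against 87.6% of all genes higher. The scaled lower calls were led by Emcn, endomucin, from 3.27, 2.75 and 3.15 to 1.33, 1.24 and 1.32 (-0.82 ± 0.09, adjusted p = 0.00217, deposited -0.18).

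Markers of tissue that dissection can include varied between libraries. The bone list counted 1 higher and 3 lower of 10 tested, against 12.8% and 15.8% of all genes. The lower count was 1 without control library 2 or 3 or exosome library 1, and the higher count 0 without control library 1, 2 or 3 or exosome library 1 or 2 and 5 without exosome library 3. Bglap, osteocalcin, was at 76.5, 261 and 256 in the controls and 69.8, 49.5 and 32.9 with exosomes (-1.81 ± 0.47, adjusted p = 0.0263), with control library 1 near the exosome libraries. The call was lost without control library 2 or 3, or exosome library 1 or 2 (adjusted p from 0.0515 to 0.0908). Bglap2, a close copy of Bglap with which reads may be shared, was at 51.1, 96.7 and 118 and 39.3, 29.7 and 23.1 (-1.45 ± 0.30, adjusted p = 0.0138), and its call held. Skeletal muscle genes counted 0 called either way by limma, also at an unadjusted p under 0.05, of 5 tested, with 4 without control library 2 on the lower side, and their sum was 17.6, 6.23 and 58.2 in the controls against 7.99 to 9.53 with exosomes, so control library 3 stood apart. Jchain, the joining chain of plasma cell antibodies, spread widely among exosome libraries, at 63.7, 5.77 and 20.6 against 3.63, 5.20 and 7.93 in the controls and 137 ± 110.0 with papain, and was not called (1.74 ± 0.69, adjusted p = 0.0941). Of 2 tested B cell and plasma cell markers 0 were called higher, and 2 without exosome library 2. Red blood cell genes counted 0 called either way by limma, also at an unadjusted p under 0.05, of 5 tested, and immediate early genes, which react to handling, 0 higher (1 at an unadjusted p under 0.05) and 0 lower (1 at an unadjusted p under 0.05) of 13 tested, with 4 without exosome library 1 on the lower side. Rora, the called member of 2 tested lymphoid markers, was at 2.23, 2.42 and 2.07 and 1.01, 0.825 and 1.96 (-0.55 ± 0.17, adjusted p = 0.0471), lost without control library 1, 2 or 3, or exosome library 1 or 2 (adjusted p from 0.0971 to 0.149). Krt14, a keratin of basal cells, was at 16.6, 11.2 and 15.3 and 10.3, 9.20 and 11.2 (-0.44 ± 0.14, adjusted p = 0.0492, deposited 0.45), lost without control library 1 or 3, or exosome library 1 or 2 (adjusted p from 0.123 to 0.146). Of proliferation genes, Plk1 was higher (0.36 ± 0.09, lost without control library 1, 2 or 3, or exosome library 1 or 2, adjusted p from 0.0548 to 0.1) and Top2a lower (-0.44 ± 0.09, lost without control library 3, or exosome library 1, adjusted p from 0.0535 to 0.0577). Heat shock chaperones counted 2 higher and 2 lower of 11 tested, near the 12.8% and 15.8% of all genes. The higher count was 1 without control library 1 or 2 or exosome library 2 or 3 and 0 without control library 3 or exosome library 1, and the lower count 0 without control library 1 or 3 and 1 without exosome library 1 or 2. The called members of smallest p were Hsp90ab1 higher (0.44 ± 0.11, lost without control library 1 or 3, or exosome library 1 or 2, adjusted p from 0.054 to 0.095) and Dnaja1 lower (-0.48 ± 0.11, lost without control library 1 or 3, adjusted p from 0.0613 to 0.063). The Y-linked Ddx3y was read in every library, at 10.2, 7.65 and 9.93 and 5.59, 6.80 and 5.85 (-0.53 ± 0.12, deposited 0.32, lost without control library 1 or 3, or exosome library 1, adjusted p from 0.0598 to 0.0682), and the sex-linked list counted 0 higher (also at an unadjusted p under 0.05) and 3 lower of 4 tested, with 0 without control library 1 or 3 or exosome library 1 and 1 without exosome library 2 on the lower side. The part of bone, muscle and plasma cells in the results above was not tested.

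Counts of housekeeping groups differed between the scales, as did those of all genes, of which 12.8% were called higher and 15.8% lower after scaling, while 87.6% of all genes were called higher as deposited. Ribosomal protein genes counted 0 higher (also at an unadjusted p under 0.05) and 19 lower of 26 tested after scaling (median -0.60) and 11 higher as deposited (median 0.35, against 0.77 over all genes), and the lower count was 8 without control library 1 or 3 or exosome library 1 and 10 without exosome library 2. Rpl27, of the large subunit, was at 216, 204 and 231 and 113, 111 and 134 scaled FPKM (-0.86 ± 0.11, adjusted p = 0.00381, deposited 0.09). Oxidative phosphorylation subunits were 10 lower of 22 after scaling and 18 higher as deposited, and the lower count was 5 without control library 1 or 3, 3 without exosome library 1 and 4 without exosome library 2. Atp5c1, of the ATP synthase, was at 156, 132 and 142 and 76.6, 80.0 and 92.6 (-0.78 ± 0.11, adjusted p = 0.00492, deposited 0.17). Of 13 mitochondrially encoded genes, 9 were called lower after scaling (median -0.73). That count was 1 without control library 1 or 3 or exosome library 1 or 2, and 4 without control library 2. As deposited, 0 were called higher (also at an unadjusted p under 0.05, median 0.23). In scaled FPKM every exosome library lay under every control for all 13, against 24% of all genes. In deposited FPKM every exosome library lay over every control for 10 of them, against 88.2% of all genes. Of unfolded protein response genes, which track secretory load, 6 of 13 were lower after scaling, and the 11 called higher as deposited are near the 87.6% of all genes. Herpud1, a factor of endoplasmic reticulum protein degradation, was at 95.6, 87.5 and 88.4 and 54.3, 47.4 and 61.8 scaled FPKM (-0.73 ± 0.11, adjusted p = 0.00582, deposited 0.22).

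**Figure D5:**
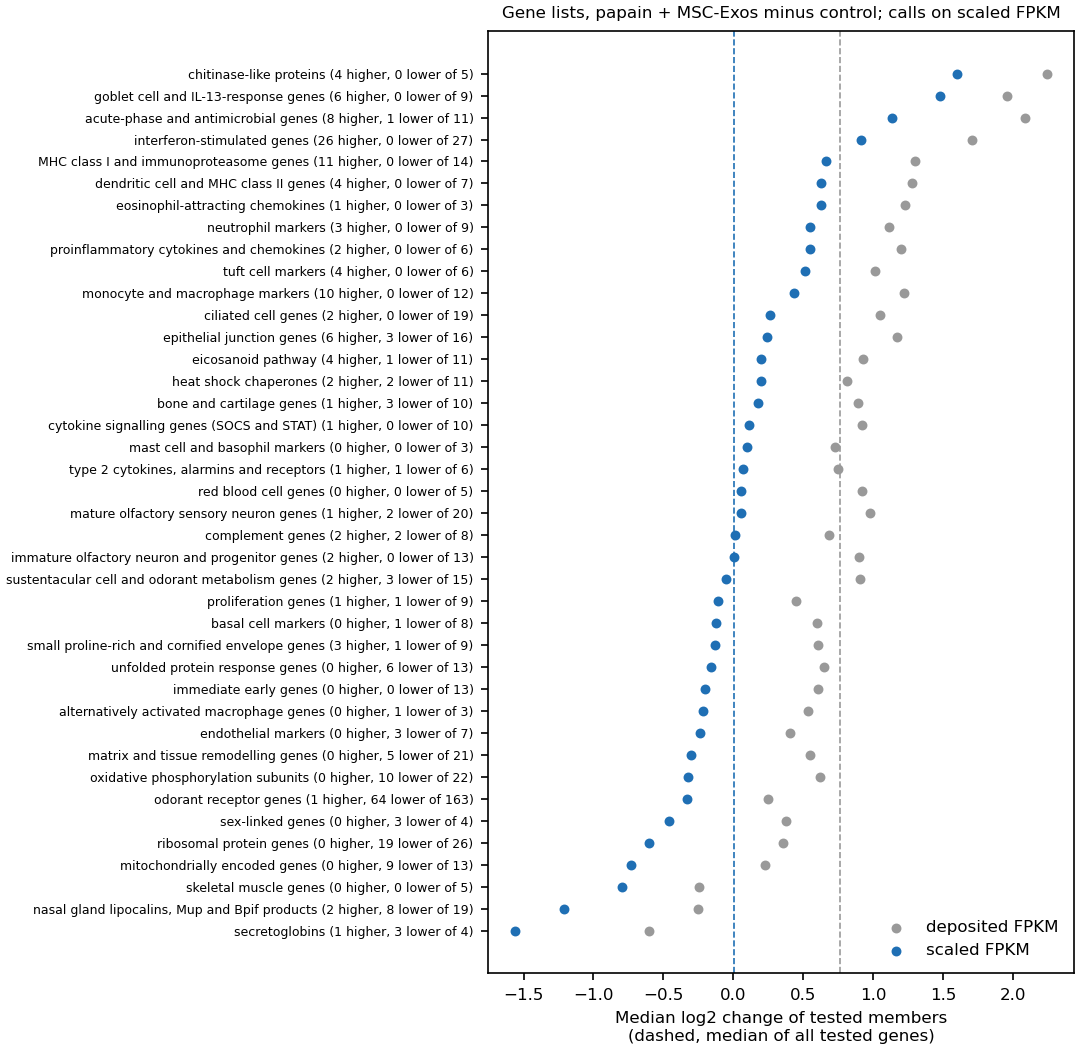
Median log2 change (papain + MSC-Exos minus control) of the tested members of each gene list with at least 3 tested members, on deposited (grey) and scaled (blue) FPKM, with dashed lines at the medians over all tested genes. Chitinase-like, goblet cell, acute-phase and interferon-stimulated genes lie to the right of the dashed lines on both scales, and gland products and secretoglobins to the left, with medians of -1.21 and -1.56 after scaling.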

How the data were processed

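Poly(A) RNA of mouse nasal mucosa, extracted with TRIzol per the labels, was sequenced in 9 libraries, and the 6 of the control and papain+MSC-Exos groups were compared. Per the submitters' processing notes, reads were trimmed with fastp 0.19.4, aligned to mm10 with HISAT2 and quantified with StringTie. The sources used here give no annotation, strand setting or treatment of reads shared by copies. The deposited values are FPKM for 21930 genes (113 without a symbol, and 26 symbols of more than 1 identifier). Low values were near whole fragments (within 0.05) in 14.7% to 28.6% of cases, so reads were not recovered and no count model was used. Coordinates are GRCm38, from GENCODE M21, and promoters are from RefSeq.

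Differences were tested with limma 3.58.1 (R 4.3.3; eBayes with trend, 4 residual degrees of freedom) on log2(FPKM + 1) over genes with at least 1 FPKM in at least 3 of the 6 libraries, both as deposited and after division by a median-of-ratios factor, with Benjamini-Hochberg adjustment over all tested genes at 0.05. Tables and figures used Python 3.11.15, pandas 2.3.3, NumPy 2.4.6 and matplotlib 3.10.9. An exact permutation of 3 against 3 libraries cannot go below p = 0.1 and was not used. On simulated data for this comparison, 61 of 100 genes changed 2-fold and 98 of 100 changed 4-fold were recovered as deposited (12455 genes). Scaled, 88 and 98 were recovered (12363 genes). Unchanged genes called numbered 6 as deposited and 9 scaled. Genes were drawn independently, with no shift shared by a whole library, unlike the real libraries. The unchanged genes called therefore do not measure false calls in these data.

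The gene lists (43) and members were chosen with earlier results of these data known, so list counts are descriptions and no list was tested as a whole. Named genes were the 10 largest rises and falls called on both scales without overlap and at 2 FPKM or more, with Gm, Rik and clone names left out, up to 2 called members of smallest p per list, and 24 genes named whatever their values. The other list members named were chosen after their values were seen, and a few list members are counted but not reported here by name. Alternatives were another pseudocount, other filters, all 9 libraries, a replicate block, no trend, a fold threshold, other scalings and each library left out.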

Additional observations from a re-analysis of the deposited data

How the results depend on the processing

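Of the alternatives tried on the deposited values, a filter of 5 FPKM gave 6052 genes higher, quantile normalization 1598 higher and 1772 lower, a common sum outside the 15 highest genes 4358 higher and 742 lower, TPM 31 lower, and a log2 change of at least 1, 2850 higher and 24 lower. Scaled, the filter of 5 FPKM gave 976 higher, and a log2 change of at least 1 gave 87 higher and 111 lower. On both scales these settings gave 976 higher, and 87 higher and 23 lower. The share of calls that were higher was 99.3% as deposited and 44.7% scaled. With 1 library left out, the ranges were 477 to 1844 higher and 679 to 2330 lower scaled, and 476 to 1844 higher and 43 to 90 lower on both scales, with the lowest higher counts without exosome library 1 and the highest without exosome library 3. The other settings tried (a pseudocount of 0.1, no filter, all 9 libraries, no trend) moved these counts by less than 1.5 times, but similar counts need not be the same genes. Without the filter, 1021 of the 1584 genes higher on both scales and 39 of the 71 lower ones were still called.

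The replicate block gave 10831 higher and 85 lower as deposited, 1444 and 1718 scaled, and 1444 and 72 on both scales, of which 1293 of the higher genes were shared with the fit without it. Deviations from the group means correlated across same-numbered libraries at -0.104, 0.081 and 0.130, so the numbers were not taken to pair the libraries.

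Deposited log2 changes turned sign in these cases, given for quantile normalization and then the common sum: Atf4 -0.36 and -0.29, Atp5c1 -0.55 and -0.51, Col1a1 -0.37 and -0.39, Ddx3y -0.52 and -0.29, Dnaja1 -0.32 and -0.22, Eif2s3y -0.45 and -0.29, Esam -0.47 and -0.25, Gpx6 -0.26 and -0.68, Herpud1 -0.55 and -0.46, Il33 -0.55 and -0.44, Krt14 -0.41 and -0.19, Mrc1 -0.47 and -0.26, Ndufa9 -0.52 and -0.41, Postn -0.41 and -0.31, Rora -0.59 and -0.39, Rpl27 -0.54 and -0.59, S100a5 -0.024 and -0.27, Timp3 -0.55 and -0.37, Top2a -0.47 and -0.23, mt-Nd5 -0.15 and -0.50. Quantile normalization alone turned Obp1a, to 0.066. TPM turned Emcn 0.16, Lox 0.26, Olfr1226 0.34, Scgb1c1 0.40, mt-Nd2 0.42. With a library left out, the range was as follows for the genes that turned sign. Arg1 -0.00087 to 0.19 (scaled), turned without control library 2. Col1a1 -0.14 to 0.91, turned without control library 1 and exosome library 1 (-0.14, -0.11). Esam -0.0029 to 0.36, turned without exosome library 1. Gpx6 -0.072 to 0.073, turned without control library 1 and exosome library 2 (-0.072, -0.017). Olfr1226 -0.15 to 0.095, turned without exosome library 3. Rora -0.10 to 0.15, turned without control library 3 and exosome library 3 (-0.005, -0.10). No scaled log2 change of a named gene turned sign under a setting tried on the scaled values, other than a left-out library. Quantile normalization, the common sum and TPM were tried on the deposited values only, so this does not compare the 2 scales. The cause of the turned signs was not tested, beyond the scaling itself. Depth limits genes of a few fragments, such as Il5, Il13, Tslp and Mcpt1, which stood under 1 FPKM in all 6 libraries.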
